A study of Mus musculus with 10 samples.

Results

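Potassium channel genes are described here across mouse ureteric bud (UB) organoids, collecting duct (CD) organoids and adult mouse collecting duct cells (mCD). The members are all genes of the deposited table whose symbol is Kcn followed by letters and a number, which gives 92 of 39273 genes. The rule uses the name and no level. They cover 30 voltage-gated pore subunits, 10 silent modifier subunits, 8 calcium- and sodium-activated pore subunits, 15 inward rectifiers, 14 two-pore-domain channels and 15 accessory subunits.

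RNA was sequenced from 10 libraries, 2 in each of 5 groups. UB organoids were grown from E11.5 UB cells of Wnt11-RFP +/- embryos on a C57BL/6 x Swiss Webster background and were kept in UB culture medium (mUBCM) for 5, 10 or 20 days. CD organoids were UB organoids of day 10 that spent 7 further days in CD differentiation medium (CDDM). The adult mCD cells are labelled as organoids with the same genotype and embryonic day 11, the age that the labels give for all libraries. The study's methods instead describe Venus+ cells sorted from the kidneys of Hoxb7-Venus mice about 2 months old. Whether the 2 libraries of a group came from separate cultures or animals is not stated, so p-values measure only the spread between these libraries.

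Potassium channels set the resting potential of a cell and let potassium leave it across one chosen face of an epithelium. In the collecting duct, Kcnj1 (ROMK) and the calcium-activated Kcnma1 (BK) sit in the apical membrane and carry potassium into the urine, whereas Kcnj10 (Kir4.1) and Kcnj16 (Kir5.1) combine into a basolateral channel that holds the membrane potential and returns potassium to the blood side. Potassium that enters through the sodium pump leaves again through such channels.

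The adult libraries hold transcripts of other nephron segments and of endothelium, which matters for several channels. Total counts ranged from 11913613 to 24536676 per library, so that 3 counts, taken as the limit of detection, correspond to 0.109 to 0.241 CPM (counts scaled to a common library size with TMM factors), a limit that covers counting error only. In adult mCD the 7 principal cell markers summed to 9351 and 8943 CPM and the 8 intercalated cell markers to 2641 and 2734 CPM. In the same libraries all 8 proximal tubule markers were at 1 CPM or more and summed to 4357 and 5116 CPM, and all 4 thick ascending limb markers were too, with sums of 3382 and 3575 CPM. In CD organoids principal cell markers summed to 1452 and 1301 CPM, with Avpr2 at 0, and intercalated cell markers to 2032 and 1942 CPM, whereas proximal tubule markers summed to 6.76 and 12.1 CPM and thick ascending limb markers to 2.71 and 7.38 CPM. In the UB organoids intercalated cell markers stayed at or below 6.34 CPM.

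Some members lie in neighbouring pairs within 200000 bases, and both pairs shown here hold genes that were called in the same direction in some comparisons below. Kcna3 with Kcna2 and Kcna5 with Kcna1 were also called lower together in CD organoids against day 10. Other pairs, such as Kcnj9 with Kcnj10 and Kcne2 with Kcne1, were called together in no comparison. Sequences are RefSeq promoters, from 250 bases before to 50 bases after an annotated start, on GRCm38.p6. Of the 92 members 67 had an entry, with 92 promoters between them, out of 32851 promoters in all. Kcnj16 at chr11:110968033-111027968 and Kcnj2 at chr11:111066164-111076821, both on the plus strand, are 38196 bases apart. In their promoters the 6 letters AACCGG, the half-site read by grainyhead-like factors, are in capitals on whichever strand they occur. The first of 4 Kcnj16 starts, chr11:110967783-110968082, holds them 72 bases before the start, and Kcnj2, chr11:111065914-111066213, holds them 34 bases before the start.
Kcnj16: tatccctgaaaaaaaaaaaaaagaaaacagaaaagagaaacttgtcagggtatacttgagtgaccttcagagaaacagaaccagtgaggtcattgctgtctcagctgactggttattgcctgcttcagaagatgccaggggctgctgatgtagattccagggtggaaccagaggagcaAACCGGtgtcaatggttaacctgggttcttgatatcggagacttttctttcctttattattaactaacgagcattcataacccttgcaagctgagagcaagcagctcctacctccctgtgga
Kcnj2: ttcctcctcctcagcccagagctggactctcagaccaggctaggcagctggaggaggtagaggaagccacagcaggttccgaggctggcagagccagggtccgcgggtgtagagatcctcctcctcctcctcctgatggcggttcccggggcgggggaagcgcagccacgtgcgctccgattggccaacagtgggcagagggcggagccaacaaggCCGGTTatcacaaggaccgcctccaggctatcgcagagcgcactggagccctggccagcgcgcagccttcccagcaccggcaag
The third Kcnj16 start holds AACCGG 200 bases before the start, and the other two do not hold it. It occurs in 6.83% of all promoters and in 8 of the 92 promoters of Kcn genes (8.70%). The motif was chosen after the levels were seen, and a match describes letters and not binding.

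Kcnj5 at chr9:32314707-32344350 on the minus strand and Kcnj1 at chr9:32372493-32399197 on the plus strand are 28143 bases apart. Here CG dinucleotides are in capitals, since the 2 promoters differ in them. The Kcnj5 promoter, chr9:32344295-32344594 on the minus strand, has 10 CG and a GC content of 58.3%. The Kcnj1 entry, chr9:32393735-32394034, has 2 CG and a GC content of 43.7%, against a median of 7 CG over all promoters and 9 over those of Kcn genes.
Kcnj5: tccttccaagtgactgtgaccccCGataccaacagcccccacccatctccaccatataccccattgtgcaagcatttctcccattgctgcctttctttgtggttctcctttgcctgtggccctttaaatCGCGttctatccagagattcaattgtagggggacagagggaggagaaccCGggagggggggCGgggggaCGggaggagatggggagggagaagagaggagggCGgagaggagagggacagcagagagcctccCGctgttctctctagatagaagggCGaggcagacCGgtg
Kcnj1: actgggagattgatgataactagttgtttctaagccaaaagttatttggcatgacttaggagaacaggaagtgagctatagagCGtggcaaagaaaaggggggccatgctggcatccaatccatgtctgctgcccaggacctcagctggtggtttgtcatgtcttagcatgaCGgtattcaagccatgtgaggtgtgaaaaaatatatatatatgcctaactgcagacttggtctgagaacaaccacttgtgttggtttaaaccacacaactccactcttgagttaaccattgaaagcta
The Kcnj1 entry lies within the longer GENCODE gene and so describes a downstream start. A further 4 motifs were searched on both strands, and no match overlapped one of another motif in the printed windows. The forkhead core TGTTTAC occurred in 3.65% of all promoters and in 0 of those of Kcn genes. The GATA motif AGATAA occurred in 11.2% of all promoters and 4.35% of those of Kcn genes. The TATA box motif TATAAA occurred in 13.6% and 5.43%. The HNF1 half-site GTTAAT occurred in 7.10% and 4.35%, and 1 of its matches lies in the printed Kcnj16 window. The other three printed windows hold none of these motifs.

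The summed level of the Kcn genes was lowest in UB organoids, intermediate in CD organoids and was highest in adult mCD. It was 315 and 340 CPM at day 5, 442 and 379 CPM at day 10, 364 and 400 CPM at day 20, 878 and 886 CPM in CD organoids and 3446 and 3499 CPM in adult mCD. The 3 UB groups lay close together, CD organoids lay above all 6 UB libraries, and adult mCD lay above all others. The number of members at 1 CPM or more was 29, 35 and 31 at days 5, 10 and 20, 34 in CD organoids and 40 in adult mCD, and the number at 100 CPM or more was 1, 0 and 1, then 3 and 7. In these bulk libraries more cells of a type and more RNA per cell cannot be told apart.

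**Figure D1:**
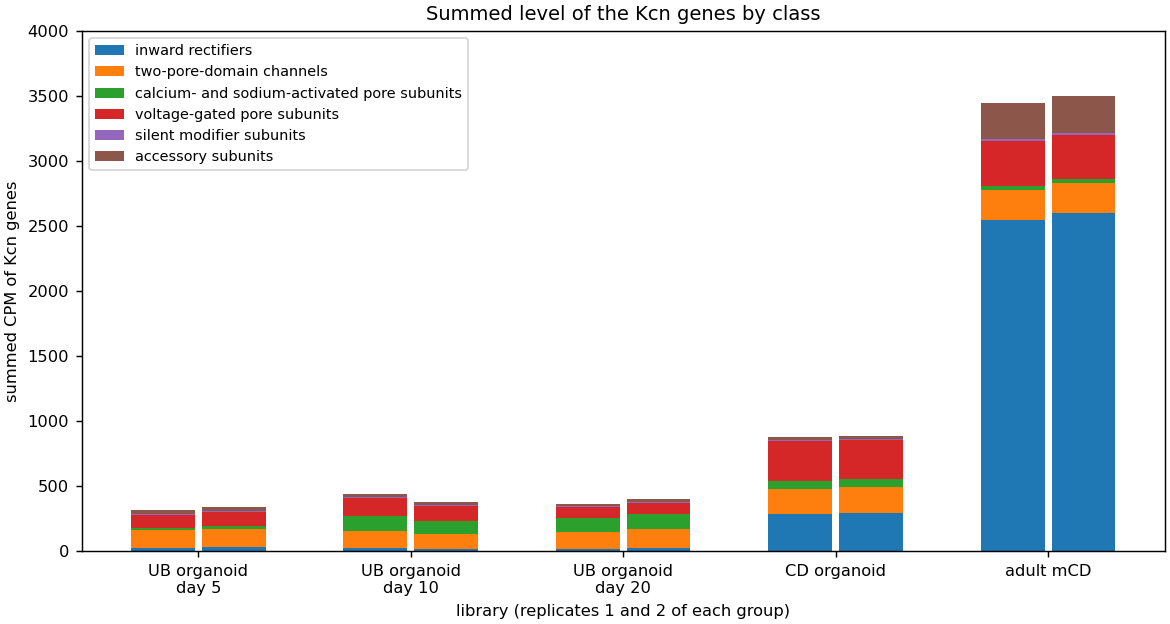
Summed CPM of the 92 Kcn genes (vertical axis) in each of the 10 libraries (horizontal axis, replicates 1 and 2 side by side), with colours for the 6 classes. Inward rectifiers make up 2548 and 2602 CPM of the adult mCD libraries but at most 30.4 CPM of any UB organoid library.

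The leading channel also changed. The deposited RPKM scale divides by the gene lengths of the deposited table, so ranks between genes depend on those lengths. In adult mCD Kcnj15 had a mean of 377 CPM but 9.75 RPKM, and Kcne1 had 264 CPM but 70.7 RPKM. In CD organoids Kcnj16 stood above Kcnk1 (TWIK-1, a background channel) by CPM, at 265 against 183, but below it by RPKM. On the RPKM scale Kcnk1 was the highest member in all 4 organoid groups. It was at 29.4 ± 1.17, 24.1 ± 1.79 and 35.7 ± 4.38 RPKM at days 5, 10 and 20 and 53.1 ± 1.18 RPKM in CD organoids (mean ± SD, n = 2 libraries). In UB organoids it was followed at day 5 by Kcnk5 (TASK-2) at 8.73 ± 0.233 RPKM, and at days 10 and 20 by the calcium-activated Kcnn4 at 10.4 ± 1.18 and 11.3 ± 0.203 RPKM. In CD organoids the next were Kcnq1, a voltage-gated pore that also works as a constitutive epithelial channel, at 38.6 ± 0.297 RPKM and Kcnj16 at 17.5 ± 0.265 RPKM. In adult mCD 4 genes stood above Kcnk1, which was at 40.6 ± 1.32 RPKM: Kcnj1 at 136 ± 2.39, Kcnj10 at 80.9 ± 2.46, Kcne1 at 70.7 ± 0.365 and Kcnj16 at 49.4 ± 1.38 RPKM. The 5 highest members made up 75.1%, 75.1% and 81.6% of the summed RPKM of all members at days 5, 10 and 20, 86.5% in CD organoids and 80.4% in adult mCD.

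Differences were tested with edgeR's quasi-likelihood test over the 24410 genes with 10 or more counts in all, and a call needed both a Benjamini-Hochberg adjusted p no higher than 0.01 and over 4-fold change. Of the 92 members 82 passed that filter. The filter sums over all groups, so a gene that is high in a single group passes through that group. The other 10 members, Kcna10, Kcnh4, Kcnj6, Kcnk12, Kcnk15, Kcnk16, Kcnk18, Kcnmb3, Kcns2 and Kcnv1, had between 0 and 9 counts over all libraries. Levels of one gene are given below in CPM and differences as log2 fold changes ± SE, the SE being derived from the test statistic.

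Kcnj1, the apical secretory channel of principal cells and the thick ascending limb, was high in adult mCD alone. Its counts were 0 in all 4 libraries of days 5 and 10. It was at 0.485 and 1.98 CPM at day 20, at 0.712 and 2.17 CPM in CD organoids and at 992 and 974 CPM in adult mCD. The adult libraries thus lay far above all others, while the libraries of day 20 and CD organoids overlapped. CD organoids were lower than adult mCD by a log2 fold change of -9.40 ± 0.29 (adjusted p = 2.04e-10). Against day 10, which holds no count, Kcnj1 was at day 20 at least 10.4-fold higher (adjusted p = 0.00216), and for CD organoids the bound was at least 12.1-fold higher (adjusted p = 0.000677). Each of these low-level calls was lost without 1 library, at day 20 without replicate 2 (adjusted p = 0.0226) and in CD organoids without replicate 2 (adjusted p = 0.0110). For scale, 25 genes were taken at 50 CPM or more in adult mCD and without counts at days 5 and 10. This set was formed after the levels were seen and includes Kcnj1 itself. Its median was 0.0118% and 0.0999% of the adult level in the 2 libraries of day 20 and 0.0205% and 0.139% in CD organoids. Its upper quartiles were 0.0480% and 0.166% at day 20 and 0.0632% and 0.220% in CD organoids. Kcnj1 stood at 0.0494% and 0.202% of its adult level at day 20 and at 0.0724% and 0.220% in CD organoids, again higher in replicate 2 of both groups. The part of adult RNA in these low values, and that of thick ascending limb cells in the adult value, was not tested.

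Kcnj10 and Kcnj16, the partners of the basolateral channel, were both high in adult mCD but differed in CD organoids. Kcnj10 was at 9.01 and 10.2 CPM at day 5, at 4.08 and 1.39 CPM at day 10, at 0.182 and 0.727 CPM at day 20, at 2.28 and 2.25 CPM in CD organoids and at 440 and 424 CPM in adult mCD. The day 5 libraries lay above those of days 10 and 20, and CD organoids lay within the range of day 10. Kcnj10 was called lower at day 20 than at day 10 (-2.47 ± 0.56, adjusted p = 0.00464) and lower in CD organoids relative to adult mCD (-7.54 ± 0.28, adjusted p = 9.52e-11). The call between days 20 and 10 was lost in 7 of the 10 fits that left out 1 library, with adjusted p of 0.00727 at less than 4-fold without replicate 1 of day 10 and of up to 0.0794 without replicate 1 of day 20. Between CD organoids and day 10 its log2 fold change was -0.25 ± 0.41 (adjusted p = 0.658).

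Kcnj16 climbed through the series. It was at 0.683 and 0.612 CPM at day 5, 4.60 and 3.10 CPM at day 10, 6.07 and 9.39 CPM at day 20, 262 and 268 CPM in CD organoids and 745 and 780 CPM in adult mCD. No 2 groups overlapped. It was called higher at day 10 than at day 5 (2.47 ± 0.28, adjusted p = 2.25e-05), and in CD organoids than at day 10 (6.09 ± 0.17, adjusted p = 9.76e-12) or day 20 (5.10 ± 0.16, adjusted p = 4.33e-11). Between days 20 and 10 the difference was 0.99 ± 0.19 (adjusted p = 0.00178), below 4-fold. CD organoids held 34.4% and 35.2% of the adult level, a log2 fold change of -1.52 ± 0.12 (adjusted p = 1.88e-07) that was also below 4-fold. The 2 members of the channel thus reached 34.4% and 35.2% of the adult level for Kcnj16 and 0.527% and 0.520% for Kcnj10 in the same libraries. Both genes are also expressed in the distal convoluted tubule and thick ascending limb. The 3 distal convoluted tubule markers summed to 465 and 514 CPM in adult mCD and to at most 2.65 CPM in either CD organoid library, beside the thick ascending limb sums given above, and their part in the adult levels was not tested.

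Kcnma1, the pore of the BK channel, was low throughout and was not highest in the adult cells. It was at 0.768 and 0.530 CPM at day 5, 4.68 and 3.72 CPM at day 10, 2.49 and 2.51 CPM at day 20, 6.69 and 5.21 CPM in CD organoids and 0.980 and 0.864 CPM in adult mCD. Day 5 and adult mCD lay below all other libraries, and CD organoids lay above them. It was called higher at day 10 than at day 5 (2.60 ± 0.28, adjusted p = 1.27e-05) and higher in CD organoids than in adult mCD (2.62 ± 0.30, adjusted p = 5.56e-06). Between CD organoids and day 10 the difference was 0.50 ± 0.24 (adjusted p = 0.0979). Of its accessory subunits, Kcnmb1 did not exceed 1.34 CPM and Kcnmb4 did not exceed 0.839 CPM in any library. Lrrc26, a gamma subunit that lets BK channels open at resting voltages, is not a Kcn gene but was taken as one of 10 channel partners. It was at 46.3 and 43.3 CPM in CD organoids, at 1.43 and 1.34 CPM in adult mCD and at most 1.12 CPM in UB organoids, and was called higher in CD organoids than at day 10 (6.76 on the log2 scale, adjusted p = 3.31e-09) and in adult mCD (4.96, adjusted p = 3.02e-08).

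**Figure D2:**
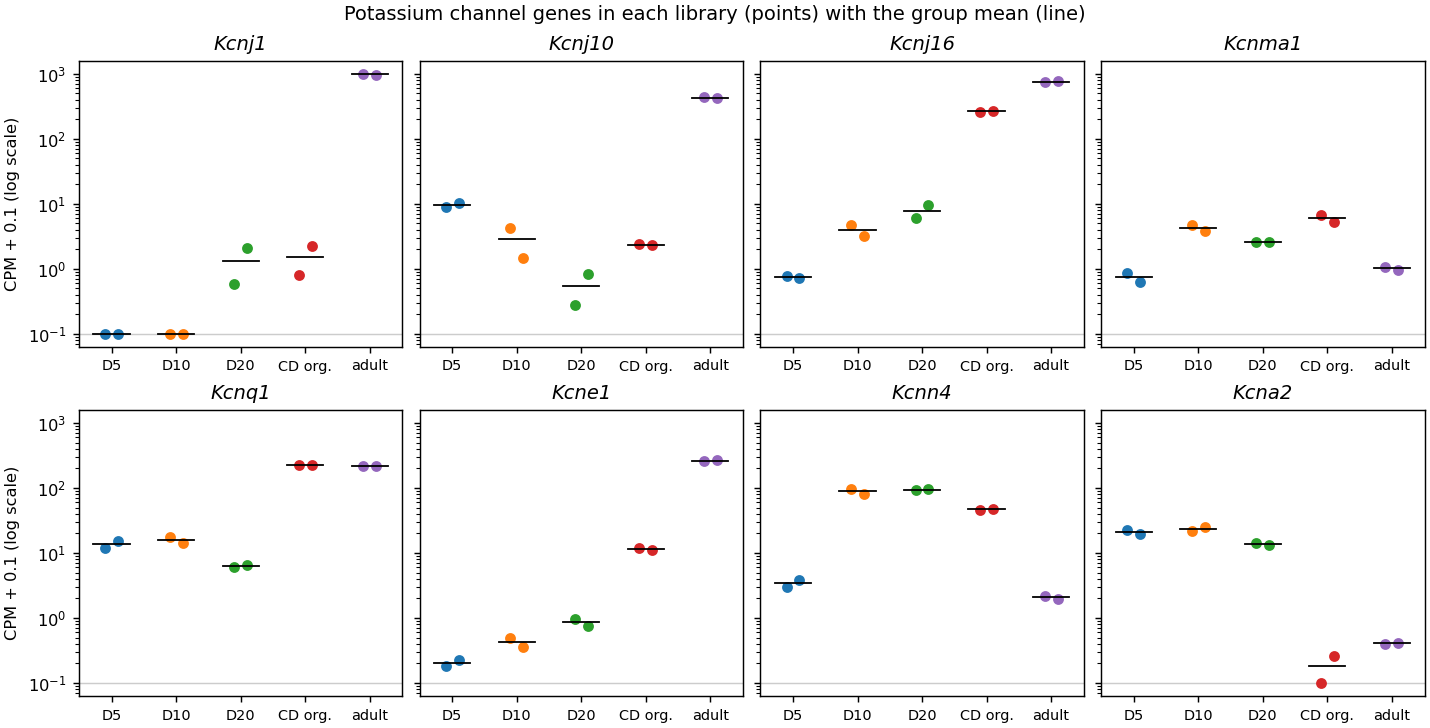
CPM + 0.1 on a log axis for 8 Kcn genes in each library (points) with the group mean (line), for UB organoids of days 5, 10 and 20 (D5, D10, D20), CD organoids (CD org.) and adult mCD (adult). Kcnj1 is at 992 and 974 CPM in adult mCD and at most 2.17 CPM elsewhere, Kcnq1 is at 225 and 228 CPM in CD organoids and 221 and 220 CPM in adult mCD, and Kcna2 is at most 0.314 CPM in both of these groups.

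Kcnq1 and its accessory subunit Kcne1, which together make the slow delayed rectifier, separated in CD organoids. Kcnq1 was at 11.8 and 15.4 CPM at day 5, 17.3 and 13.9 CPM at day 10, 5.95 and 6.48 CPM at day 20, 225 and 228 CPM in CD organoids and 221 and 220 CPM in adult mCD. It was called higher in CD organoids than at day 10 (3.86 ± 0.12, adjusted p = 2.41e-11) and day 20 (5.18 ± 0.14, adjusted p = 1.04e-11). Against adult mCD the difference was 0.04 ± 0.10 (adjusted p = 0.816), and its sign turned under other size factors, at -0.01. The antisense transcript Kcnq1ot1 lies within Kcnq1, and counting by strand is not stated, so reads of the pair cannot be told apart. Kcnq1ot1 had mean levels of 73.1, 76.3 and 52.7 CPM at days 5, 10 and 20, 51.3 CPM in CD organoids and 22.6 CPM in adult mCD, and the part of its reads in the Kcnq1 values was not tested.

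Kcne1 was at 0.0854 and 0.122 CPM at day 5, 0.396 and 0.255 CPM at day 10, 0.849 and 0.661 CPM at day 20, 12.0 and 11.1 CPM in CD organoids and 262 and 266 CPM in adult mCD. Each group lay above the one before it. It was called higher in CD organoids than at day 10 (4.94 ± 0.17, adjusted p = 6.40e-11) and day 20 (3.83 ± 0.17, adjusted p = 7.37e-10), and lower than in adult mCD (-4.51 ± 0.10, adjusted p = 1.24e-12). Kcne1 is also a proximal tubule gene, and the proximal tubule markers in the adult libraries are given above; their part in its adult level was not tested. On the RPKM scale CD organoids held 38.6 for Kcnq1 and 3.14 for Kcne1, against 36.9 and 70.7 in adult mCD.

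During growth in mUBCM from day 5 to day 10, 9 of the 82 members tested were called higher and 2 lower, against 2.34% and 1.07% of all genes tested (3.41% in either direction). Kcnn4, a calcium-activated channel of intermediate conductance, had the largest fitted log2 fold change. It was at 2.86 and 3.75 CPM at day 5 and at 95.7 and 81.7 CPM at day 10 (4.72 ± 0.13, adjusted p = 3.82e-10), and it stayed at 92.4 and 95.5 CPM at day 20. The sodium-activated Kcnt1 went from 0.640 and 1.43 to 5.95 and 10.8 CPM (2.95 ± 0.33, adjusted p = 1.60e-05). Of the voltage-gated subunits, Kcnh7 (an erg-type channel) went from 3.07 and 3.67 to 32.4 and 18.0 CPM (2.88 ± 0.26, adjusted p = 2.89e-06) and Kcnq5 from 0.299 and 0.204 to 3.17 and 2.48 CPM (3.24 ± 0.45, adjusted p = 0.000107). Besides these and Kcnj16 and Kcnma1, the calls were Kcnj2, Kcnj3 and Kcnf1, each at a mean below 1 CPM over the 4 libraries. Kcnj3 went from 1 count to 72 counts (ratio 65.5, 95% counting interval 11.4 to 2624). Kcnj2 dropped below 4-fold without replicate 2 of day 10, at 1.86, and Kcnf1 was lost in 7 of the 10 fits without 1 library, with adjusted p between 0.0122 and 0.0652. In the other direction the inward rectifier Kcnj4 (Kir2.3) went from 4.91 and 7.43 to 1.59 and 1.39 CPM (-2.02 ± 0.34, adjusted p = 0.000652). This call sat at the edge of 4-fold and was lost without replicate 2 of either group, at -1.69 without that of day 5 and -1.93 without that of day 10. The median log2 fold change of the 82 members was 0.48, against 0.02 for all genes.

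Between days 10 and 20, 2 members were called higher and 5 lower, against 1.66% and 1.73% of all genes (3.39% together). Kcnh7 returned to 4.19 and 2.84 CPM (-2.82 ± 0.27, adjusted p = 5.47e-06), so that its level at day 10 stood above both other UB stages. The silent subunit Kcnf1, which forms channels only with other subunits, went from 0.436 and 0.729 to 2.49 and 3.70 CPM (2.29 ± 0.37, adjusted p = 0.000614). It was lost without replicate 2 of day 20, at 1.99 with an adjusted p of 0.0132. The remaining calls, apart from Kcnj1 and Kcnj10, were of Kcne3, Kcnh6 and Kcnj4, all lower and at a mean below 1 CPM. Without replicate 2 of day 20 all 3 of these were lost, with adjusted p between 0.0154 and 0.0489, and without replicate 1 Kcnh6 and Kcnj4 were too, at 0.0195 and 0.0194. Kcnk5 went from 36.7 and 30.4 to 15.4 and 14.2 CPM, a difference of -1.18 ± 0.12 (adjusted p = 1.04e-05) that did not reach 4-fold. Members had a median log2 fold change of -0.47, or -0.44 with the 3 genes that had no count in 1 group set at their bound, against -0.10 for all genes.

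More members, and a larger share of all genes, were called in CD organoids against UB organoids than between the UB stages. Besides the medium, CD organoids differed from day 10 in further days of culture and in lower total counts per library. Total counts were 22858971 to 24536676 at days 5 and 10 and 11913613 to 16759872 in the other groups. This difference thus also lies between days 10 and 20. The study's methods do not say whether all groups were sequenced together, and the part of a batch was not tested. The part of CDDM in these calls was not tested. Against UB organoids of day 10, from which CD organoids were made, CD organoids had 10 members called higher and 17 called lower, against 4.96% and 5.71% of all genes (10.7% together). Beside Kcnj16, Kcne1 and Kcnq1, the strong inward rectifier Kcnj2 (Kir2.1) went from 1.07 and 1.86 to 14.2 and 16.4 CPM (3.33 ± 0.25, adjusted p = 1.02e-07). Its adult level was 8.74 and 10.7 CPM. Kcnj2 and its neighbour Kcnj16 were both called higher here, and both also at day 10 against day 5 and in either comparison with day 20, though these comparisons share libraries. Kcnj13 (Kir7.1), known from transporting epithelia, went from 0.0396 and 0.109 to 2.71 and 2.41 CPM (4.33 ± 0.47, adjusted p = 3.51e-06). The silent subunit Kcns3 went from 0.832 and 0.109 to 4.20 and 5.45 CPM (3.24 ± 0.49, adjusted p = 8.11e-05). Kcnd3, an A-type channel, went from 0.317 and 0.583 to 3.13 and 1.84 CPM (2.33 ± 0.43, adjusted p = 0.000490), a call that was lost without replicate 1 of CD organoids (adjusted p = 0.0148). The other calls were Kcnj1, Kcng3 and Kcnh1, each below a mean of 1 CPM over the 4 libraries. Kcng3 and Kcnh1 were each lost without replicate 1 of CD organoids (adjusted p of 0.0160 and 0.0475), Kcng3 also without replicate 2 of either group (0.0347 for CD organoids, 0.0172 for day 10), and Kcnh1 without replicate 1 of day 10 (0.0120).

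Most of the losses were of voltage-gated subunits, with 9 of 28 tested called lower (32.1%) and 3 called higher (10.7%). The shares were 20.7% and 12.2% over all members tested and 5.71% and 4.96% over all genes. Of these 9, Kcna1, Kcna3, Kcnd2, Kcnh6 and Kcnh8 had means below 1 CPM. The calls of Kcna1, Kcna3 and Kcnh7 were lost in fits without 1 library. Kcna2, a Kv1 channel best known from axons, was at 22.2 and 19.4 CPM at day 5, 21.6 and 24.9 CPM at day 10, 14.3 and 13.0 CPM at day 20, 0 and 0.160 CPM in CD organoids and 0.301 and 0.314 CPM in adult mCD. All UB organoid libraries thus lay above all CD organoid and adult libraries. With only 2 counts left in CD organoids, the ratio to day 10 was 0.00324 (95% counting interval 0.000392 to 0.0117, adjusted p = 4.93e-10). Kcng1, a silent subunit, was at 7.57 and 7.07 CPM at day 10 and had no count in CD organoids, which makes it at least 30.4-fold lower (adjusted p = 1.95e-07). Kcnip3, a calcium-binding partner of Kv4 channels, was at 3.17 and 3.06 CPM at day 10 and left 1 count in CD organoids, a ratio of 0.0121 (0.000305 to 0.0684, adjusted p = 5.23e-07). Kcna5 (Kv1.5), among the 5 highest members per length at days 5 and 10, went from 8.52 and 5.32 to 1.14 and 1.04 CPM (-2.60 ± 0.30, adjusted p = 5.83e-06). Kcnh7 fell by 2.39 on the log2 scale, but by 1.89, below 4-fold, without replicate 1 of day 10. Kcnq5 also fell, by 2.88 ± 0.49 on the log2 scale (adjusted p = 0.000235).

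Other classes lost members too. Kcnj15 (Kir4.2) went from 10.5 and 9.92 to 2.28 and 2.25 CPM (-2.14 ± 0.16, adjusted p = 7.11e-08), and the small-conductance Kcnn3 from 2.46 and 2.22 to 0.427 and 0.561 CPM (-2.13 ± 0.38, adjusted p = 0.000318). The beta subunit Kcnab2 went from 8.01 and 6.49 to 1.28 and 1.92 CPM (-2.15 ± 0.25, adjusted p = 5.93e-06). The calls of Kcnn3 and Kcnab2 dropped below 4-fold without replicate 1 of CD organoids, at -1.96 and -1.88, and that of Kcnab2 also without replicate 1 of day 10, at -1.98. A further 8 members called lower, Kcna1, Kcna3, Kcnd2, Kcnf1, Kcnh6, Kcnh8, Kcnj4 and Kcnk10, had means below 1 CPM. Without replicate 1 of CD organoids Kcna1, Kcnf1 and Kcnk10 were lost at adjusted p between 0.0103 and 0.0116, and Kcna3 was lost in 9 of the 10 fits without 1 library. Over the 82 members the median log2 fold change was -0.77, or -0.57 with the 10 genes without counts in 1 group at their bound, against -0.15 for all genes. The 3 neuronal markers checked summed to 3.80 and 5.79 CPM at day 5, 12.2 and 18.1 CPM at day 10 and 18.6 and 17.9 CPM at day 20. They summed to 1.57 and 1.44 CPM in CD organoids and 1.13 and 0.472 CPM in adult mCD. Their part in the loss of Kcna2 and similar subunits was not tested.

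Against UB organoids of day 20, with which the CD organoid libraries were compared a second time, 9 members were called higher and 8 lower, against 4.74% and 4.73% of all genes (9.46% together). Kcnq1, Kcnj16, Kcne1, Kcnj2 (3.85 ± 0.28, adjusted p = 9.22e-08) and Kcnj13 (3.62 ± 0.49, adjusted p = 3.28e-05) were higher, as was Kcns3, which held 2 counts at day 20 (ratio 75.7, 20.5 to 632, adjusted p = 2.10e-05). Kcnd3 was called too (2.11 ± 0.47, adjusted p = 0.00205) but not without any 1 of 3 libraries, replicate 1 of CD organoids and both of day 20 (adjusted p up to 0.0379). Lower were Kcna2 (ratio 0.00553, 0.000668 to 0.0201), Kcnip3 (ratio 0.00693, 0.000174 to 0.0391) and Kcnh8 (ratio 0.0120, 0.000302 to 0.0687). Kcnd2 was lower as well (ratio 0.0586, 0.0118 to 0.180), Kcng1 was at least 14.6-fold lower and Kcnf1 at least 12.9-fold lower. Kcnj3 went from 2.06 and 2.38 to 0.214 and 0.642 CPM (-2.27 ± 0.47, adjusted p = 0.00126), a call lost without replicate 1 of CD organoids (adjusted p = 0.0265) or replicate 2 of day 20 (adjusted p = 0.0102). The other 3 calls, Kcna7 and Kcng3 higher and Kcnc1 lower, were at means below 1 CPM and were each lost without 1 of at least 3 libraries, both CD organoid libraries included (adjusted p up to 0.0515). Kcnn4 was at 45.8 and 47.8 CPM in CD organoids, below all libraries of days 10 and 20, with differences of -0.92 ± 0.10 and -1.01 ± 0.10 that did not reach 4-fold.

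**Figure D3:**
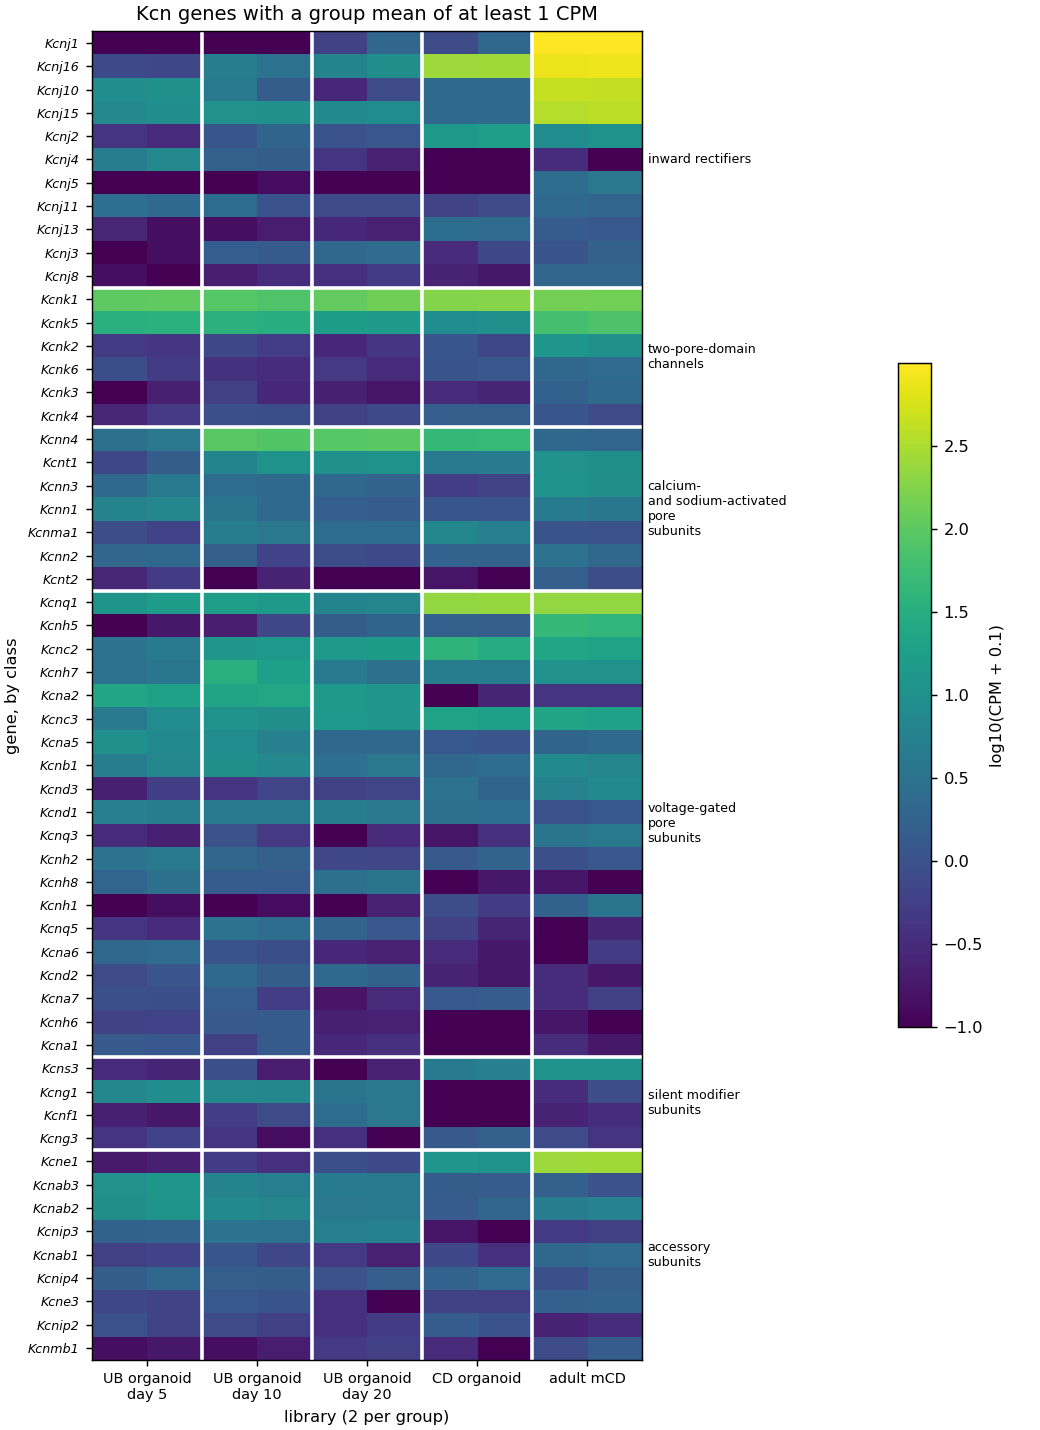
Levels of the Kcn genes with a mean of at least 1 CPM in some group, except 1 that is not reported, as log10(CPM + 0.1) in colour, by library (columns, 2 per group) and gene (by class). Kcnj1, Kcnj10, Kcnj15 and Kcne1 are brightest in adult mCD, Kcnq1 is bright in CD organoids and adult mCD, and Kcna2 and Kcng1 are dark in CD organoids.

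Compared with adult mCD, CD organoids had 4 members called higher and 18 called lower, against 4.50% and 9.84% of all genes (14.3% together). Of the inward rectifiers 5 of 14 tested were called lower, and of the accessory subunits also 5 of 14, of which all but Kcne1 were lost without replicate 2 of CD organoids. Kcnj15 was at 352 and 401 CPM in adult mCD and at 2.28 and 2.25 CPM in CD organoids (-7.35 ± 0.13, adjusted p = 6.05e-13). Markers of other nephron segments in the adult libraries are given above, and their part in its adult level was not tested. Kcnj5 (Kir3.4), the neighbour of Kcnj1, was at 2.49 and 3.77 CPM in adult mCD and without counts in CD organoids, at least 13.0-fold lower (adjusted p = 5.00e-05). Like Kcnj1, it was thus called lower than in adult mCD. Kcnj8 (Kir6.1), a pore of ATP-sensitive channels, was at 1.96 CPM in both adult libraries and left 3 counts in CD organoids (ratio 0.0577, 0.0115 to 0.178, adjusted p = 0.000107). Its partner Abcc9 was at 6.56 and 8.09 CPM in adult mCD and was called lower too (-3.41, adjusted p = 3.27e-05). Both are expressed by mural cells, and the 4 stromal and mural markers summed to 213 and 240 CPM in adult mCD and 128 and 81.9 CPM in CD organoids. The 4 endothelial markers summed to 506 and 499 CPM in adult mCD and 1.85 and 1.92 CPM in CD organoids. The part of these cells in the adult levels was not tested.

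Channels of other classes were lower as well. Kcnh5 (EAG2) was at 45.9 and 43.4 CPM in adult mCD and at 1.57 and 1.52 CPM in CD organoids (-4.80 ± 0.31, adjusted p = 2.05e-08). Kcnn3 was at 10.7 and 9.35 CPM against 0.427 and 0.561 CPM (-4.21 ± 0.35, adjusted p = 2.45e-07). The M-current subunit Kcnq3 was at 3.32 and 4.09 CPM against 0.0712 and 0.241 CPM (-4.19 ± 0.63, adjusted p = 6.99e-05). Among the two-pore-domain channels, Kcnk2 (TREK-1) was at 12.4 and 9.90 CPM against 1.07 and 0.642 CPM (-3.61 ± 0.32, adjusted p = 4.67e-07). Kcnk5, known from the proximal tubule, was at 64.7 and 74.7 CPM against 8.61 and 10.0 CPM (-2.90 ± 0.13, adjusted p = 5.28e-10). Kcnk3 was lower by 3.06 ± 0.62 on the log2 scale (adjusted p = 0.000976), with an adjusted p of up to 0.0132 without 1 library (either CD organoid library or replicate 2 of adult mCD). The 6 remaining members called lower, Kcnab1, Kcne4, Kcng1, Kcnip3, Kcnmb1 and Kcnt2, had adult means between 0.424 and 2.24 CPM. Each was lost without replicate 2 of CD organoids, at adjusted p between 0.0156 and 0.0644. Kcnmb1, one of them, overlaps Kcnip1 on chromosome 11 and reads of the pair may have been shared out between them.

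The members higher in CD organoids than in adult mCD included Kcnn4, Kcnma1 and Kcnip2. Kcnn4 was at 45.8 and 47.8 CPM against 2.11 and 1.89 CPM (4.51 ± 0.16, adjusted p = 4.14e-11). In UB organoids Kcnn4 was at 81.7 to 95.7 CPM at days 10 and 20. Kcnip2 was at 1.35 and 0.962 CPM against 0.151 and 0.236 CPM (2.30 ± 0.55, adjusted p = 0.00306), and was lost without replicate 1 of CD organoids or either adult library (adjusted p between 0.0165 and 0.0318). Kcnk1 differed little, at 180 and 186 CPM in CD organoids and 145 and 140 CPM in adult mCD (0.36 ± 0.09, adjusted p = 0.00376). Members had a median log2 fold change of -1.22, or -1.18 with 2 genes at their bound, against 0.00 for all genes. Scaling by library totals alone moved the median of all genes to 0.34 and gave 4 members called higher and 15 lower, with 1607 higher and 2010 lower calls over all genes in place of 1098 and 2401.

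**Figure D4:**
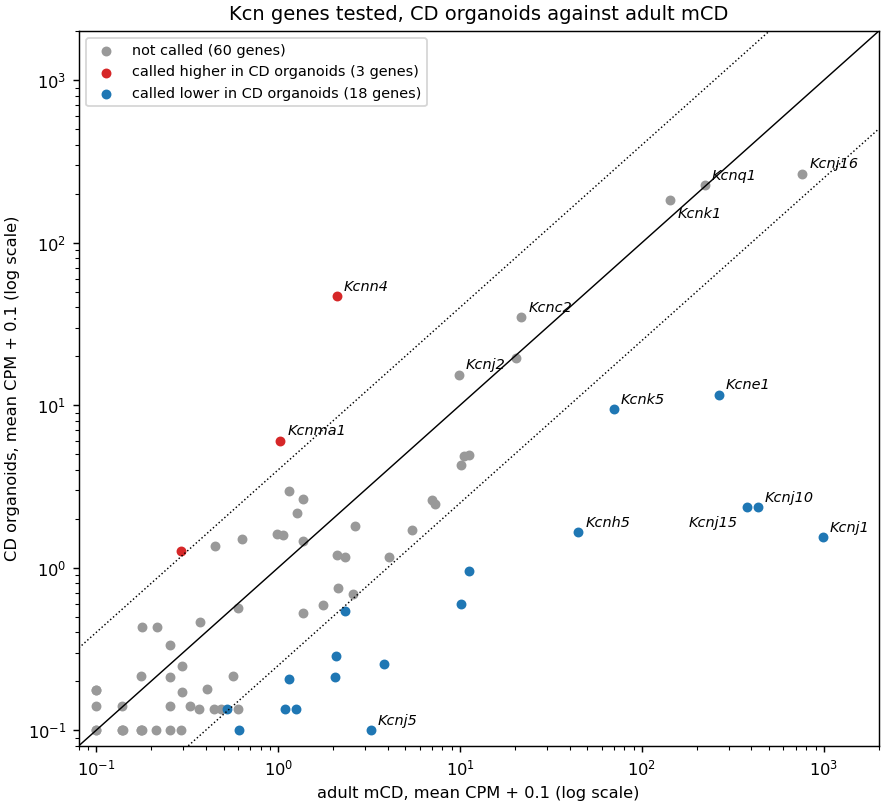
Mean CPM + 0.1 in CD organoids (vertical, log axis) against adult mCD (horizontal, log axis) for the Kcn genes tested, except 1 that is not reported, with the line of equality and dotted lines at 4-fold. The 18 genes called lower include Kcnj1, Kcnj10, Kcnj15 and Kcne1 at the right, those called higher include Kcnn4 and Kcnma1, and Kcnq1 and Kcnk1 lie next to the line.

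Adult mCD against UB organoids of day 20 gave the most calls, with 24 members higher and 10 lower against 12.3% and 6.89% of all genes (19.2% together). Of the 14 inward rectifiers tested 8 were higher and none lower, and of the 10 two-pore-domain channels 4 were higher and none lower. Kcnj10 (9.76 ± 0.34), Kcnj1 (9.61 ± 0.29), Kcne1 (8.34 ± 0.13) and Kcnj16 (6.62 ± 0.17) had the largest fitted gains, with adjusted p between 1.77e-13 and 8.98e-11. Kcnj15 (5.50 ± 0.11), Kcnk2 (5.18 ± 0.37), Kcnq1 (5.14 ± 0.14) and Kcnh5 (4.74 ± 0.30) followed. The part of other nephron segments in these adult levels was not tested. Kcnj5 was at least 15.8-fold higher, and Kcns3, at 11.4 and 10.7 CPM, was higher than the 2 counts of day 20 (ratio 175, 47.9 to 1448). By fitted log2 fold change the largest losses were of Kcnn4 (-5.52 ± 0.15, adjusted p = 3.03e-12) and Kcna2 (-5.24 ± 0.29, adjusted p = 2.55e-09). Kcnh8, which kept 1 count in adult mCD against 99 at day 20, had a ratio of 0.0123 (95% counting interval 0.000308 to 0.0700, adjusted p = 3.22e-06). The median log2 fold change was 0.67 over the members, 0.62 with 4 genes at their bound, and -0.06 over all genes. With scaling by library totals alone, which moved the latter to -0.47, 22 members were higher and 11 lower, and over all genes 2469 were higher and 2420 lower in place of 3005 and 1683. Kcnk5, at 2.23 ± 0.12, dropped below 4-fold with that scaling, at 1.77.

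**Figure D5:**
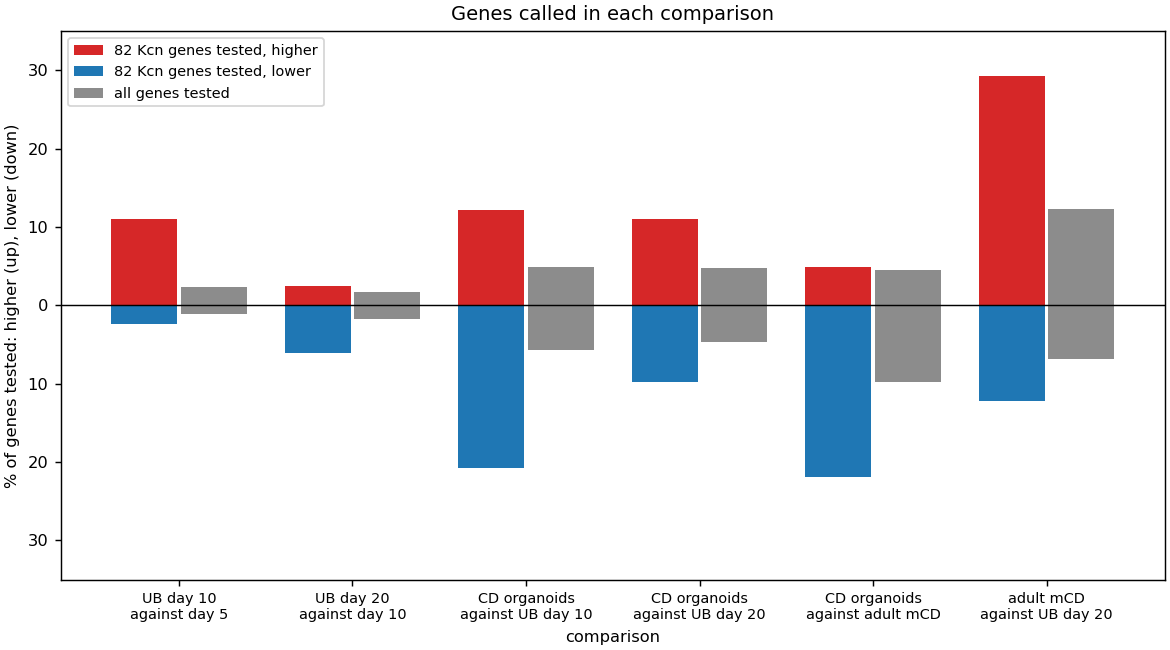
Share of genes called higher (up) and lower (down) in each of the 6 comparisons, in percent of genes tested, for the 82 Kcn genes tested (red and blue) and for all 24410 genes tested (grey). With all 10 libraries, the share of Kcn genes called lies above that of all genes in each comparison taken as a whole. Between days 10 and 20 this rests on 7 members (8.54% against 3.39%), and most of these calls were lost without replicate 2 of day 20. In CD organoids against adult mCD the higher calls are 4.88% of Kcn genes and 4.50% of all genes.

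Of 14 accessory subunits tested none was called between days 5 and 10 and 1, Kcne3, between days 10 and 20, and of 10 two-pore-domain channels none was called in either, against 3.41% and 3.39% of all genes. Kcnab3, a beta subunit, was at 10.3 and 12.9 CPM at day 5, 5.95 and 5.18 CPM at day 10, 4.19 and 4.03 CPM at day 20, 1.42 and 1.28 CPM in CD organoids and 1.58 and 0.943 CPM in adult mCD. Each UB stage lay below the one before it, and the last 2 groups overlapped. It was called in none of the 6 comparisons, the largest difference being -1.99 on the log2 scale in CD organoids against day 10 (adjusted p = 1.79e-05), though day 5 was not compared with CD organoids or adult mCD. Kcnc2, a Kv3 channel named after its values were seen, was at 3.24 and 4.41 CPM at day 5, 13.2 and 13.5 CPM at day 10, 13.8 and 14.7 CPM at day 20, 39.8 and 29.7 CPM in CD organoids and 22.7 and 20.4 CPM in adult mCD, and reached 4-fold in none of the 6 comparisons.

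Genes that work beside these channels were read from 2 lists. Of the 10 channel partners, 1 was called higher and none lower in CD organoids against day 10 and likewise against day 20, in both cases Lrrc26, a count near the shares over all genes (4.96% higher and 5.71% lower against day 10, 4.74% and 4.73% against day 20). Against adult mCD Lrrc26 was higher and Lrrc52, Abcc8 and Abcc9 were lower, where the shares over all genes were 4.50% and 9.84%. No partner was called between the UB stages, where 3.41% and 3.39% of all genes were called. Lrrc52, Abcc8 and Abcc9 were the partners called higher in adult mCD than at day 20, where 12.3% of all genes were higher and 6.89% lower. Of 22 regulators and pumps of distal potassium handling, 8 were higher and 1 lower in CD organoids against day 10, and 7 and 1 against day 20, where the shares over all genes were 4.96% and 5.71%, and 4.74% and 4.73%. The aldosterone-induced kinase Sgk1 already rose in mUBCM, from 0.640 and 0.857 CPM at day 5 to 24.2 and 29.3 CPM at day 20. It was the 1 gene of this list called between days 5 and 10 (2.60 on the log2 scale, adjusted p = 7.99e-07). The same held between days 10 and 20 (2.46, adjusted p = 1.47e-08), where 3.39% of all genes were called, after 3.41% before. From 4.32 and 5.29 CPM at day 10 Sgk1 went to 170 and 178 CPM in CD organoids (5.16 on the log2 scale, adjusted p = 2.09e-12), with 331 CPM in both adult libraries. The epithelial sodium channel subunit Scnn1a, whose current drives potassium secretion, went from 1.31 and 2.59 to 161 and 165 CPM (6.33, adjusted p = 1.87e-11). The sodium pump subunit Atp1b1 went from 82.6 and 67.1 to 1714 and 1740 CPM (4.53, adjusted p = 6.00e-11). The kinase Wnk3 was the one called lower, from 13.8 and 16.8 to 3.70 and 3.21 CPM (-2.13, adjusted p = 3.70e-07). In adult mCD against day 20, 12 of the 22 genes were higher and 1 was lower, with shares over all genes of 12.3% and 6.89%. Against adult mCD 1 of these genes was higher and 5 were lower in CD organoids, with shares over all genes of 4.50% and 9.84%. Among those lower was Hsd11b2, the enzyme that shields the mineralocorticoid receptor from glucocorticoids, at 44.6 and 32.8 CPM against 2634 and 2573 CPM (-6.07, adjusted p = 3.46e-11).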

How the data were processed

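RNA-seq of 10 libraries in 5 groups of 2 was read from one table that the authors deposited, with 39273 genes. Per the study's methods, reads were trimmed and aligned with STAR in Partek Flow to mm10 with GENCODE M24, and the authors quantified counts per gene with the Partek expectation-maximisation model. Whether the deposited counts came from these steps is not stated. The deposited RPKM values divide the deposited counts by gene length and depth, with a further constant factor per library, from 0.911 to 1.28. They were used only to compare levels between genes. The deposited scaled counts, a signal normalised by the authors with TMM, were not used for tests. The submitters' processing notes also list FastQC 0.11.8, cutadapt 2.5, Trimmomatic 0.36, edgeR 3.28.1 and GRCm38.p6. The labels and the methods name different RNA and library kits, and counting by strand is not given in the sources used here.

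Counts were tested with edgeR 4.0.16 (R 4.3.3, limma 3.58.1) by the quasi-likelihood test, with TMM factors and 1 mean per group over all 10 libraries, for the 24410 genes with at least 10 counts in all. P-values were Benjamini-Hochberg adjusted over all of these genes, and fitted fold changes used a prior count of 1. With a group at 0 counts a fold is a bound against 3 counts in 1 library, taking the library of that group with the higher limit in CPM, and with 1 to 3 counts it is a ratio with an exact 95% interval that covers counting error only. In counts simulated for CD organoids against day 10, 200 of 200 changed genes were recovered with 1 false call among 24398 genes. The changed genes were not at low counts and their folds lay well beyond 4-fold. The simulation thus says nothing of calls at low counts or near 4-fold. Alternatives were RLE size factors, library totals, other filters, prior count 5, other thresholds, the compared libraries alone, DESeq2 1.42.0, a replicate block and leaving out each library. Python 3.11.15 with pandas 2.3.3, numpy 2.4.6, scipy 1.17.1 and matplotlib 3.10.9 made the summaries.

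Members, lists and tests were chosen with earlier results of these data known. Genes were named where they were called with a mean of at least 1 CPM over the 4 libraries compared (up to 10 each way), where they were among the 5 highest by RPKM in a group, or as Kcnj1, Kcnj10, Kcnj16, Kcnma1, accessory or two-pore examples and partners. Called genes below that mean are named to complete the counts, and were chosen after their values were seen. Values of 1 member are not reported here, and it stays in the counts over members.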

Additional observations from a re-analysis of the deposited data

How the results depend on the processing

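Counts of Kcn genes called moved by more than 1.5 times as follows. From day 5 to day 10, 9 were called higher and 2 lower: lower calls were 1 with library totals alone, 1 with edgeR's filterByExpr, 1 with prior count 5 and 5 at 2-fold, and an adjusted p of 0.05 at any fold gave 19 higher and 8 lower. From day 10 to day 20, with 2 higher and 5 lower, prior count 5 and a fit of only the 4 libraries each gave 1 higher and 2 lower, no filter gave 9 lower, 2-fold gave 4 and 11, and the looser p gave 9 and 22. For CD organoids the looser p gave 16 higher and 32 lower against day 10, 20 and 20 against day 20, and 10 and 33 against adult mCD, and 2-fold gave 15 lower against day 20. Without 1 library the higher and lower counts ranged from 8 to 10 and 1 to 3 (day 10 against 5), 0 to 3 and 1 to 8 (day 20 against 10), 7 to 10 and 12 to 22 (CD organoids against day 10), 6 to 10 and 6 to 8 (against day 20), 3 to 4 and 12 to 18 (against adult mCD) and 23 to 24 and 9 to 10 (adult mCD against day 20). Where this left 1 library in a group, that library was assumed to vary like the other groups.

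The sign turned for Kcnq1 in CD organoids against adult mCD (0.04), at -0.0148 both with RLE size factors and with DESeq2. Without 1 library, Kcnj10 in CD organoids against day 10 ranged from -0.818 to 0.70 and Kcnj1 against day 20 from -0.73 to 1.43. The causes were not tested. Over the values of single genes, 919 kept their direction and side of the thresholds under other settings, 57 lost the call and 2 turned, and without 1 library 1137, 90 and 3 did.

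Replicate numbers did not pair the libraries: deviations from the group means correlated at -0.05 to 0.14 over 14687 genes. With a replicate block 8, 2, 10, 10, 4 and 24 members were higher and 2, 5, 16, 8, 18 and 10 lower in the 6 comparisons in the order above. With 2 libraries a group, low-level channels rest on few counts, and differences under 3 counts were not detectable at this depth.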
